A study of Mus musculus with 18 samples.

Results

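The comparison described here is that of DN1 cells with all DN cells in the thymus of mice given an isotype control antibody. Control DN1 cells (2 arrays) were sorted as lacking CD4 and CD8 and as carrying CD44 but not CD25, and control DN cells (3 arrays) were sorted only as lacking CD4 and CD8. All animals were C57BL/6 mice killed 2 weeks after the injection, so the control animals had also received an antibody. These 5 arrays, taken by their sample labels, are all the control arrays of sorted cells among the 18 arrays of the series. The other groups used here are anti-DLL4 DN1 cells (3 arrays) and anti-DLL4 DN cells (3 arrays), sorted through the same gates from mice that had received an antibody against the Notch ligand DLL4. The study's description speaks of thymi from 4 animals per antibody, and no label ties a sample to an animal. The p-values therefore rest on a spread between samples, pooled over the 18 arrays, which may in part be technical.

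DN cells are the immature thymocytes that have not yet switched on either co-receptor of T cells. In textbook terms they pass through stages, DN1 with CD44 and without CD25, DN2 with both, DN3 with CD25 alone and DN4 with neither, and Notch signals from DLL4 on the thymic epithelium commit them to the T lineage on the way. The CD44+CD25- gate holds the early thymic progenitors, and it can also hold dendritic cells, B cells, NK cells and other leukocytes of the thymus, because they too carry CD44 and lack the co-receptors. DN1 cells are themselves a small part of DN cells, so the comparison sets a part against a whole that contains it.

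RNA had been amplified in 2 rounds before labelling with Cy3, and each sample was hybridised to 1 array of 43537 non-control spots. The 75th percentile of the processed intensity, a measure of how bright an array is, was 2643.1 and 1831.7 on the control DN1 arrays, against 260.2, 337.9 and 675.5 on the control DN arrays. The control DN1 arrays were thus brighter than all 3 control DN arrays, and brightness moved with the groups. It was 977.7, 3641.7 and 3019.4 on the anti-DLL4 DN1 arrays and 887.7, 1076.8 and 741.3 on the anti-DLL4 DN arrays. The control DN arrays were therefore the dimmest of all arrays of sorted cells. The part of brightness in the differences was not tested. Spots well above background made up 84% and 74.6% of the control DN1 arrays, against 79.4%, 74.2% and 59.9% of the control DN arrays. Over genes, the control DN1 arrays correlated with each other at r = 0.92. Control DN replicates 1 and 2 correlated at 0.92 with each other, whereas replicate 3 correlated at 0.79 and 0.9 with them and at 0.9 and 0.93 with the DN1 arrays. Because the control DN arrays differ among themselves in this way, results are also given without replicate 3 and without replicates 1 and 2. Replicate 1 of both groups lay on slide 3, replicate 2 of both on slide 5, and DN replicate 3 on slide 6.

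Levels are given as log2 intensity minus the 75th percentile of the array, so 0 is the 75th percentile and each unit is a doubling. Differences are DN1 minus DN. The median difference over the 21749 genes tested, those whose probe stood well above background on 2 or more of the 5 arrays, was -0.78. Each difference is printed relative to it, with its standard error (SE), so that the median over all tested genes is 0. The p-values beside it are of limma's test of the unshifted difference, the printed value less 0.78, against 0, unless a test against the median of all genes is named. Of these genes, 241 were higher in control DN1 cells (1.11%) and 54 were lower (0.248%) at a limma adjusted p under 0.05, and 4540 had an unadjusted p under 0.05, 1280 of them higher and 3260 lower. A list's count at an unadjusted p under 0.05 is to be read beside these 1280 and 3260 of 21749 genes. In all 295 the arrays of the groups did not overlap, while among all genes with a value on every array 11.5% lay without overlap on the higher side in DN1 and 26.5% on the lower side. Of the 54 lower genes, 25 were not well above background on any DN1 array, and of the 241 higher genes 14 were not well above background on any DN array.

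The calls lean on a spread shared by all 18 arrays. By group, the median standard deviation over genes was 0.442 in control DN1 cells and 1.03 in control DN cells. With the 5 control arrays alone, which leave 3 residual degrees of freedom, 0 genes passed the threshold, although 2877 had an unadjusted p under 0.05. Without control DN1 replicate 1 the counts were 1 higher gene (H2-Aa) and 2 lower ones (2310068C19Rik and Mpped2, which were not among the 54). Without DN1 replicate 2 there were 40 and 1 (Acot5), without DN replicate 1 148 and 18, and without DN replicate 2 97 and 9. Without DN replicate 3 they were 518 higher genes (2.39%) and 1112 lower ones (5.13%), and without DN replicates 1 and 2 together they were 13 (0.066%) and 0, with 1775 genes at an unadjusted p under 0.05. Krt8, Ttc39c, Treml4, Cd55b, Olfm1 and Cd209d, higher without DN replicates 1 and 2, were not among the 241. Blocking on the slide left 106 higher (0.487%) and 22 lower (0.101%) genes, and 98 and 13 of these belong to the 241 and 54. Testing each difference against the median of all genes in place of 0, an alternative added after seeing the data, gave 764 higher (3.51%) and 29 lower (0.133%) genes, which include all 241 and 29 of the 54. The higher calls were then 9 of 11 MHC class II genes, 19 of 23 B-cell genes, 14 of 22 NK and innate lymphoid genes and 12 of 20 conventional dendritic cell genes. Higher genes made up 81.7% of the calls, 96.3% against the median of all genes, 98.1% with normexp background correction, and 31.8% without DN replicate 3.

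**Figure D1:**
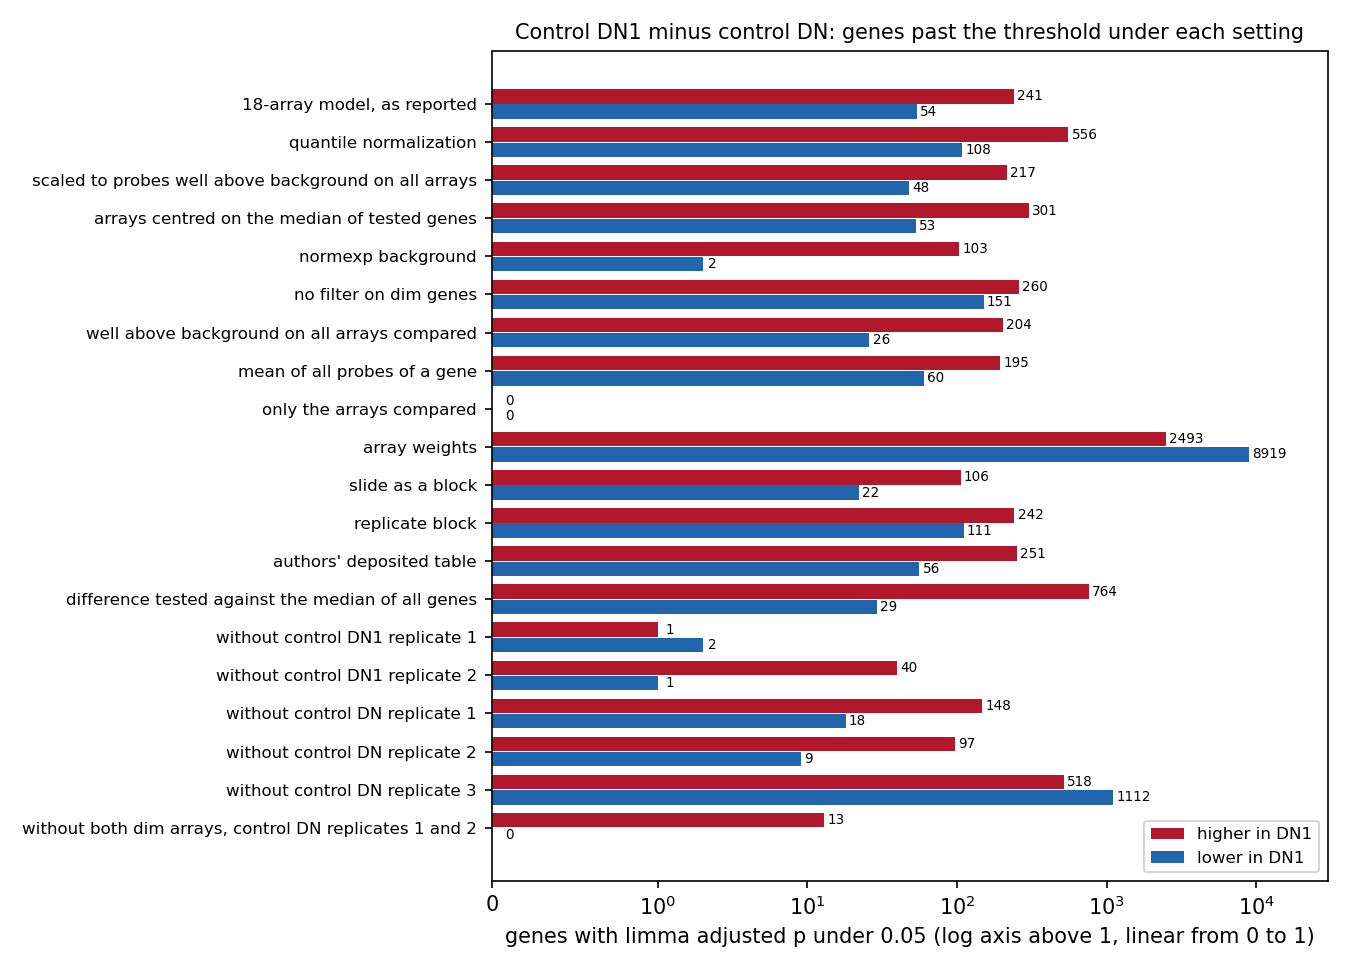
Number of genes past a limma adjusted p of 0.05 (horizontal axis, log above 1) that were higher (red) or lower (blue) in control DN1 than in control DN cells, for the model as reported and for each other setting. The counts were 241 and 54 as reported, 764 and 29 against the median of all genes, 0 and 0 with the 5 compared arrays alone, 518 and 1112 without DN replicate 3, and 13 and 0 without both dim DN arrays.

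The antigens of the sort were read first. Cd44, the hyaluronan receptor that the DN1 gate selects, was at 3.07 and 2.4 on the control DN1 arrays, against 0.83, 0.45 and -0.22 on the control DN arrays. The groups did not overlap. The difference was 3.16 ± 0.52 (SE; limma adjusted p = 0.0342), all 3 of its probes had the same sign, and it was 3.11 within slide 3 and 2.82 within slide 5; blocking on the slide gave an adjusted p of 0.123. Il2ra, which encodes CD25, the antigen the gate excludes, was at -2.6 and -0.3 in DN1 cells, against 0.2, 1.54 and 1.97 in DN cells. These levels did not overlap either, but the difference of -1.91 ± 0.79 did not pass the test (adjusted p = 0.122).

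Co-receptor transcripts were present in both sorts. Cd8b1, which encodes the beta chain of CD8, was at 6.35 and 6.59 in control DN1 cells, against 6.82, 6.96 and 7.14 in control DN cells, and averaged 8.8 on the control thymocyte arrays. Cd8a was at 3.6 and 4.59 in DN1 cells, against 2.22, 3.25 and 3.79 in DN cells, and averaged 6.86 in thymocytes. Cd4 was at -2.94 and -3.97 in DN1 cells, against -0.75, -2.68 and -3.29 in DN cells. None of these 3 genes passed the test (adjusted p of 0.757, 0.551 and 0.458), and the share of CD8-expressing cells in either sort was not measured. Of the 5 sort antigens 1 was called, and their median difference was 0.28.

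**Figure D2:**
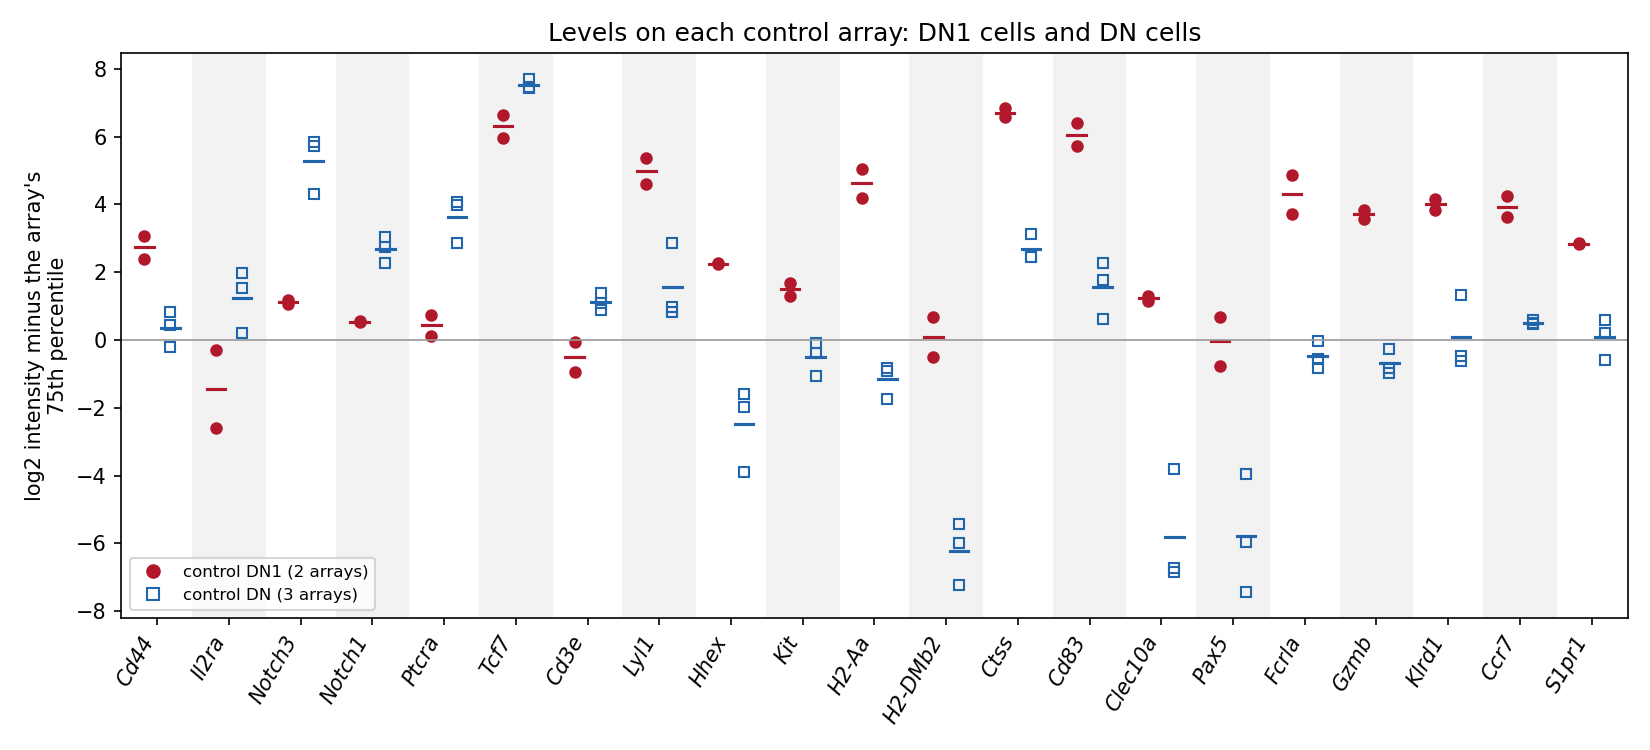
Level of 21 named genes on each array (vertical axis, log2 intensity minus the 75th percentile of the array) in control DN1 cells (red circles, 2 arrays) and control DN cells (blue squares, 3 arrays), with short lines at the means. Cd44, Lyl1, Hhex and the antigen presentation, B-cell and NK genes lie higher on both DN1 arrays, and Notch3 lies lower, at 1.07 and 1.19 in DN1 cells against 4.31 to 5.84 in DN cells.

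The genes of MHC class II antigen presentation stood highest of the 33 lists, with a median difference of 4.71. The proteins display peptides from engulfed material to CD4 T cells, and dendritic cells, B cells and macrophages carry them. Of 11 members, 5 rose in control DN1 cells and none fell, and all 11 had an unadjusted p under 0.05 on the higher side. H2-Aa, the alpha chain of I-A, was at 5.05 and 4.19 in DN1 cells, against -1.73, -0.84 and -0.92 in DN cells. Its arrays lay far apart, with a difference of 6.56 ± 0.56 (adjusted p = 0.000409). H2-DMb2, part of the exchange factor that loads peptides, was at 0.68 and -0.51 in DN1 cells, against -5.42, -5.99 and -7.24 in DN cells. It was not well above background on any of the 3 DN arrays, so its level was at least 54.6-fold higher in DN1 cells (adjusted p = 0.000409).

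The other called members were the I-A beta chain H2-Ab1, with a difference of 4.86 ± 0.53 (adjusted p = 0.0038), the I-E beta chain H2-Eb1 with 4.71 ± 0.56 (adjusted p = 0.00422) and H2-Ob, part of the brake on peptide loading, with 5.74 ± 0.78 (adjusted p = 0.00556). H2-Ab1 was at 6.94 and 6.35 in DN1 cells, against 2.17, 2.56 and 2.94 in DN cells, and its 4 probes had the same sign. The list's median was 5.63 within slide 3 and 4.15 within slide 5. Under the slide block 5 members were called, without DN replicate 3 there were 6, and without DN replicates 1 and 2 there were 2, H2-DMb2 and H2-Aa. The lowest difference of any member was 2.81.

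Because several of these neighbouring genes moved together, the sequence just before their starts is shown, from RefSeq (GRCm38.p6), for the called members that the promoter table holds. Each line runs 5′ to 3′ over the last 120 bases before the start. The capitals mark GATTGG on the strand shown, the core of the Y box of class II promoters, which is an inverted CCAAT motif. Matches on the other strand, which read CCAATC, are not marked, and the H2-Eb1 line holds such a match. H2-Aa lies on the minus strand at chr17:34287824-34287943, and the other 3 lie on the plus strand, H2-DMb2 at chr17:34145129-34145248, H2-Eb1 at chr17:34305747-34305866 and H2-Ob at chr17:34238785-34238904.
H2-Aa: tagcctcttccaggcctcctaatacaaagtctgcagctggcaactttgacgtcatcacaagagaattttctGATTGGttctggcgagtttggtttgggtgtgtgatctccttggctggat
H2-DMb2: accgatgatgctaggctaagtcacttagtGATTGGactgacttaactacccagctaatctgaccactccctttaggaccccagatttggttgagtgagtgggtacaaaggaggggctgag
H2-Eb1: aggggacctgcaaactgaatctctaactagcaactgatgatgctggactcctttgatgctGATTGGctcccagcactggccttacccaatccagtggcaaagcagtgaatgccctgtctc
H2-Ob: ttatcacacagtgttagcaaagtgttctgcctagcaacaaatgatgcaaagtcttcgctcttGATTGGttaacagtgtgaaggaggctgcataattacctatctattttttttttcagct

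GATTGG begins 49 bases before the start of H2-Aa, 91 before that of H2-DMb2, 60 before that of H2-Eb1 and 58 before that of H2-Ob. Searched on both strands over the 250 bases before the start, GATTGG was found in 8 of the 8 listed class II genes in the table, against 16.6% of all 27025 genes. Counted by window it was in 8 of their 9 windows, since H2-DMa has it in only 1 of 2, against 14.6% of all 32851 windows. H2-Ab1, Cd74 and Ciita are named only. A match is a run of letters and shows no binding.

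Lysosomal enzymes that prepare antigens stood with them. Of 10 members, 4 rose in control DN1 cells and none fell, with a median difference of 2.22. Ctss, the protease that trims the class II chaperone, was at 6.84 and 6.57 in DN1 cells, against 2.46, 2.46 and 3.14 in DN cells. The groups were clearly separate, and the difference was 4.8 ± 0.52 (adjusted p = 0.0038). Lgmn, a lysosomal endopeptidase, Ctsh, an aminopeptidase, and Ifi30, a thiol reductase, had differences of 4.83, 4.59 and 4.72 (adjusted p of 0.00478, 0.00532 and 0.00701). All 4 kept their call with the slide as a block and without DN replicate 3, and 0 did without DN replicates 1 and 2, where the list's median was 1.29.

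Genes of conventional dendritic cells, which present antigen to thymocytes, had a median difference of 3.74. Of 20 tested members 5 rose and none fell: Clec10a, Cd40, Cd83, Irf4 and Irf8. Clec10a, a lectin of dendritic cells and macrophages, was at 1.3 and 1.16 in control DN1 cells, against -6.86, -6.74 and -3.82 in control DN cells. DN replicate 3, the only DN array on which it was well above background, lay nearest to the DN1 arrays. The difference was 7.81 ± 0.92 (adjusted p = 0.0038), and without DN replicates 1 and 2 it was 5.41 (adjusted p = 0.0901). Cd83, a marker of mature antigen-presenting cells, was at 6.4 and 5.72 in DN1 cells, against 0.61, 1.77 and 2.27 in DN cells, with a difference of 5.28 ± 0.63 (adjusted p = 0.00422).

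Cd40, a co-stimulatory receptor, and the transcription factors Irf4 and Irf8 had differences of 4.97, 5.36 and 3.89 (adjusted p of 0.00422, 0.00422 and 0.00878). Irf8 did not pass under the slide block (adjusted p = 0.0794) and the other 4 did, and without DN replicates 1 and 2 no member passed. None of the 3 defining markers of these cells passed. Itgax, which encodes CD11c, was at 2.97 and 1.61 in DN1 cells, against -3.67, -1.96 and 0.29 in DN cells, a difference of 4.85 with an adjusted p of 0.0683 (0.016 against the median of all genes) and 1 of its 2 probes of that sign. Zbtb46, a factor of conventional dendritic cells, had a difference of -0.96, with 2 of its 5 probes of the same sign, and Clec9a, a receptor for dead cells, had one of 1.99. The groups overlapped for these 2 genes (adjusted p of 0.232 and 0.554).

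Plasmacytoid dendritic cell genes had a median difference of 2.76, and 3 of 18 rose. They were the RNA sensor Tlr7 (5.1 ± 0.74, adjusted p = 0.00911), the adaptor Blnk, which B cells also use (4.76 ± 0.84, adjusted p = 0.0296), and Klk1 (4.98 ± 0.99, adjusted p = 0.0489). Siglech, their defining surface lectin, was at -3.34 and -1.97 in control DN1 cells and not above background in this sense on any DN array. Its mean level was at least 8.15-fold higher in DN1 cells, a bound that makes no allowance for the spread between arrays. The difference did not pass the limma test (adjusted p = 0.17). Under the slide block 0 members passed, and without DN replicates 1 and 2, 0 passed.

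Monocyte and macrophage genes had a median difference of 3.27, and 3 of 20 rose: the chemokine receptor Ccr2 (4.14, adjusted p = 0.034), Adgre1, which encodes F4/80 (5.45, adjusted p = 0.0343), and the pore-forming protein Mpeg1 (4.6, adjusted p = 0.0399). Adgre1 was at 2.97 and 0.67 in DN1 cells, against -5.57, -1.54 and -1.46 in DN cells, where it was well above background on 2 arrays. Its difference was 9.41 within slide 3 and 3.08 within slide 5. Csf1r, the receptor for the macrophage growth factor, had a difference of 4.84 ± 0.98 (adjusted p = 0.0536, and 0.0109 against the median of all genes). No member of this list passed with the slide as a block.

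Neutrophil granule genes did not pass: of 13 tested, 0 were called and 2 had an unadjusted p under 0.05. Their median was 2.56, but S100a9, a calcium-binding protein of neutrophils, was at 4.52 and -0.1 in DN1 cells, against -0.5, 1 and -1.58 in DN cells. DN1 replicate 1 alone was high for S100a9. Mpo, the peroxidase of neutrophil granules and of myeloid progenitors, was at 4.04 and 2.68 in DN1 cells, against -1.97, -0.72 and 0.51 in DN cells. It was high on both DN1 arrays, with a difference of 4.86 ± 1.34 (adjusted p = 0.157) that was 6.87 within slide 3 and 4.27 within slide 5. The list's median was 4.51 within slide 3 and -0.22 within slide 5.

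**Figure D3:**
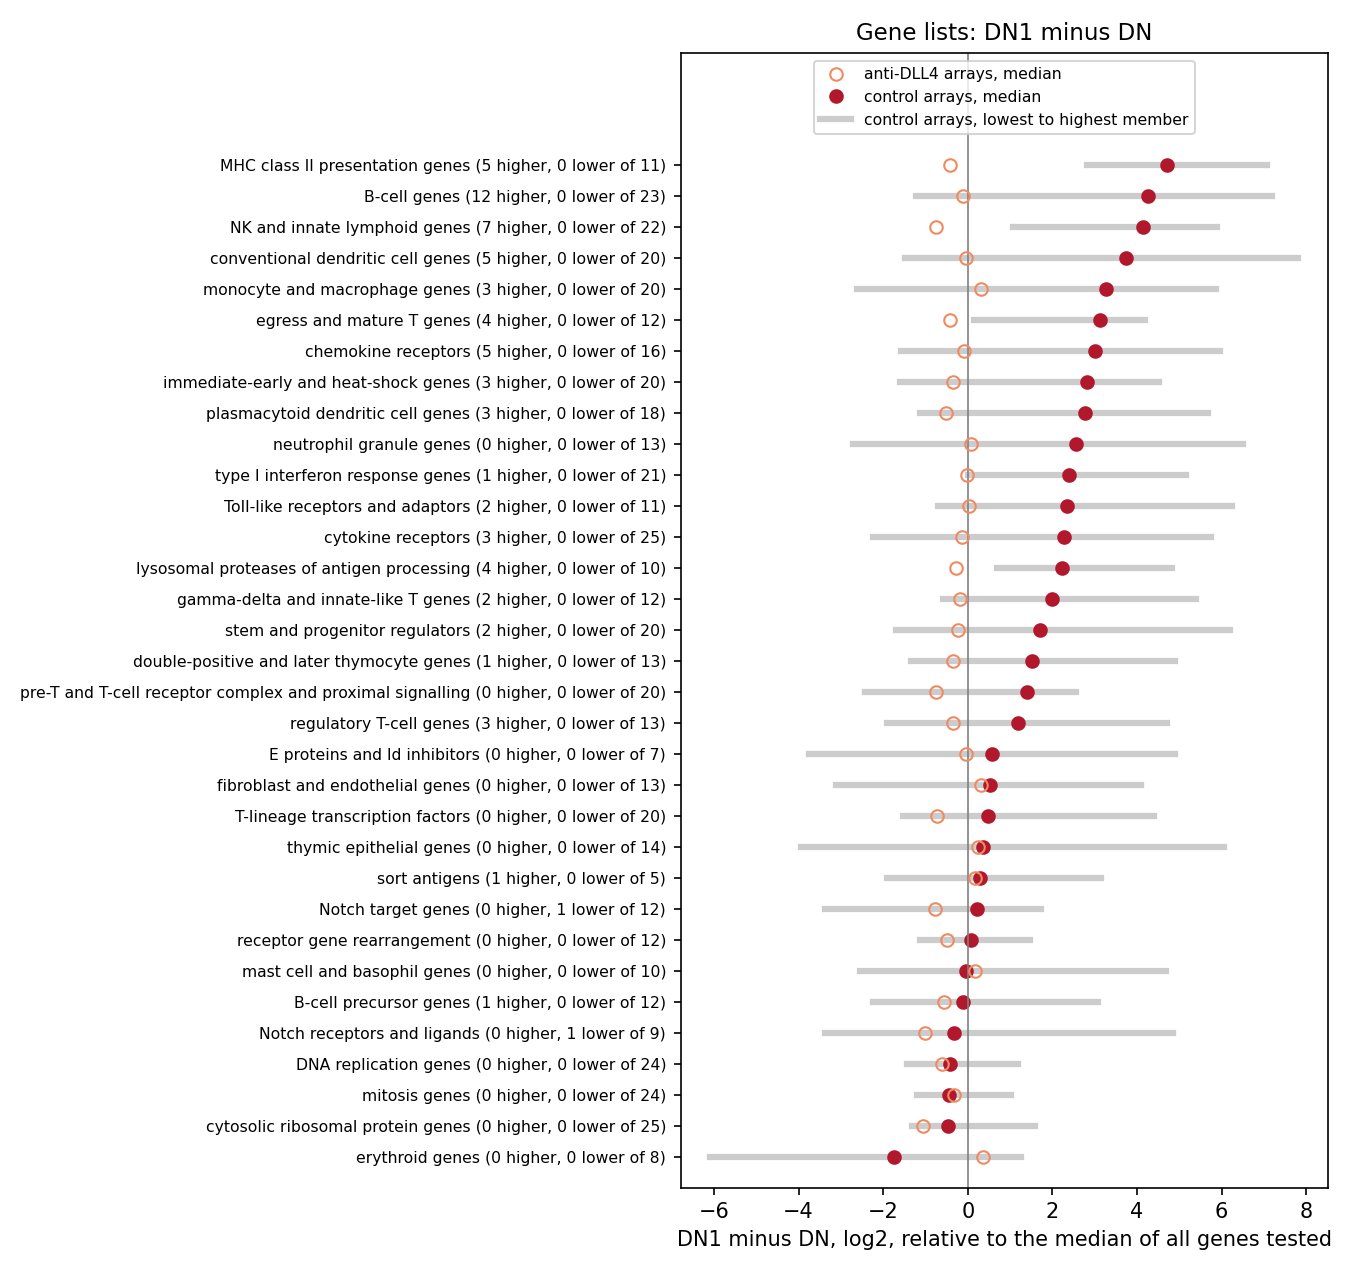
Difference of DN1 minus DN (horizontal axis, log2, relative to the median of all genes tested) for 33 gene lists, with the median of each list in anti-DLL4 arrays (open orange circles) and in control arrays (filled red circles) and the range over members in control arrays (grey). In control arrays the medians ran from 4.71 for MHC class II genes to -1.75 for erythroid genes, and in anti-DLL4 arrays from 0.36 to -1.07.

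B-cell genes gave the most calls of any list. Of 23 members, 12 rose in control DN1 cells and none fell, with a median difference of 4.26. Fcrla, a B-cell Fc receptor-like protein, was at 4.86 and 3.73 in DN1 cells, against -0.03, -0.82 and -0.55 in DN cells, a difference of 5.54 ± 0.6 (adjusted p = 0.0038). Cxcr5, the chemokine receptor that leads B cells to follicles, was at 5.41 and 4.16 in DN1 cells, against -0.19, -0.18 and -0.82 in DN cells. The groups did not overlap for either gene, and the Cxcr5 difference was 5.96 ± 0.68 (adjusted p = 0.0038).

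Pax5, the master factor of B-cell identity and a defining marker, was at 0.69 and -0.76 in DN1 cells, against -5.96, -7.45 and -3.94 in DN cells, where it was well above background on 1 array. Its brightest probe gave a difference of 6.53 ± 0.92 (adjusted p = 0.00629), and the other of its 2 probes had the opposite sign. Fcmr, the receptor for IgM, Cd72, a B-cell co-receptor, and Tnfrsf13c, the receptor for the survival factor BAFF, had differences of 5.19, 5.04 and 5.12 (adjusted p of 0.00455, 0.00532 and 0.00532). Cd79a, part of the B-cell antigen receptor and another defining marker, did not follow them. It was at -2.74 and -3.47 in DN1 cells, against -1.47, -3.72 and -4.1 in DN cells, with a difference of 0.78 and an adjusted p of 0.999.

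On each array the median level of the 23 B-cell genes was 4.86 and 4.01 in control DN1 cells, against -0.03, -0.17 and 0.26 in control DN cells. The 3 DN arrays were closer to each other here than the DN1 arrays. Blocking on the slide left 8 calls, without DN replicate 3 there were 16 higher and 1 lower, and without DN replicates 1 and 2 there were 0, although the median difference was then still 4.01. Genes of B-cell precursors had a median of -0.12, and the 1 called member of 12 was Il7r, the interleukin-7 receptor, which T-cell precursors and mature T cells share (3.07 ± 0.52, adjusted p = 0.04, and 0.133 with the slide as a block).

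Genes that mark NK and innate lymphoid cells had a median difference of 4.14. Of 22 members 7 rose and none fell. Gzmb, a cytotoxic granule protease, was at 3.85 and 3.57 in control DN1 cells, against -0.83, -0.98 and -0.26 in control DN cells. The spread within each group was small beside the difference of 5.17 ± 0.63 (adjusted p = 0.00422). Klra1 and Klrc1, NK receptors, were not well above background on any DN array and were at least 15.6-fold and 9.99-fold higher in DN1 cells (adjusted p of 0.00455 and 0.0153). Klrd1, which pairs with the Klrc receptors as CD94, Tyrobp, a signalling adaptor, and Klre1 had differences of 4.71, 4.29 and 4.89 (adjusted p of 0.00855, 0.0182 and 0.0229). Of the 2 probes for Klre1, 1 had the opposite sign.

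The defining markers of NK cells were not called. Klrb1c, which encodes NK1.1, was at 3.76 and 3.79 in DN1 cells, against 0.17, -3.63 and -0.26 in DN cells (5.8 ± 1.51, adjusted p = 0.13, and 0.0461 against the median of all genes), and Ncr1, an activating receptor, had a difference of 1.36 with overlapping groups. Under the slide block 5 members of the list passed, and without DN replicates 1 and 2 only Klra1 did (adjusted p = 0.0342). The members of the Klra family are near-identical, so the probe may read more than 1 of them.

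Some markers of mature and innate-like T cells were called too. Of 12 tested genes of egress and mature T cells 4 rose, with a median difference of 3.12. Ccr7, the chemokine receptor of the medulla and lymph nodes, was at 4.24 and 3.62 in control DN1 cells, against 0.49, 0.59 and 0.46 in control DN cells (4.2 ± 0.55, adjusted p = 0.00662). S1pr1, the receptor through which T cells leave the thymus, was at 2.86 and 2.83 in DN1 cells, against 0.6, -0.59 and 0.21 in DN cells (3.55 ± 0.49, adjusted p = 0.00978). In neither gene did the groups overlap. Klf2, the factor that drives S1pr1, and Il7r were the other called members, with differences of 3.91 and 3.07, and 1 of the 2 probes for Klf2 had that sign.

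Of 13 regulatory T-cell genes 3 rose: the co-stimulator Icos (4.7 ± 0.64, adjusted p = 0.00701), the ectoenzyme Nt5e (4.36, adjusted p = 0.0323) and the integrin Itgae (4.39, adjusted p = 0.0335). The median of this list was 1.19, with 4 higher and 2 lower at an unadjusted p under 0.05, and its lowest difference was -1.91. Of 12 gamma-delta and innate-like T-cell genes 2 rose, Cxcr6, the receptor for CXCL16 (3.8, adjusted p = 0.0139), and the kinase Blk, which B cells also express (4.06, adjusted p = 0.0214), and the list's median was 1.98. The double-positive and later thymocyte list had 1 call of 13, Cd69, an activation marker that egressing cells lose (3.16, adjusted p = 0.0467), with a median of 1.52. Blocking on the slide, 1 member of the egress list, 0 of the regulatory T-cell list, 0 of the double-positive list and 1 of the gamma-delta list, which was neither Cxcr6 nor Blk, passed, and without DN replicates 1 and 2 none of these lists had a call.

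Regulators of stem cells and progenitors, which the early progenitors in the DN1 gate express, had a median difference of 1.71, and 2 of 20 rose. Lyl1, a factor of early thymic progenitors, was at 5.37 and 4.6 in control DN1 cells, against 0.83, 0.96 and 2.86 in control DN cells. DN replicate 3 lay between the other DN arrays and the DN1 arrays, and the difference was 4.21 ± 0.69 (adjusted p = 0.023). Hhex, a homeobox factor of progenitors and B cells, was at 2.23 and 2.26 in DN1 cells, against -3.9, -1.97 and -1.6 in DN cells (5.51 ± 1.02, adjusted p = 0.0335), and 1 of its 3 probes had the opposite sign. Kit, the stem cell factor receptor that defines early thymic progenitors, was at 1.31 and 1.69 in DN1 cells, against -1.07, -0.38 and -0.09 in DN cells. It did not pass (2.79 ± 0.74, adjusted p = 0.183, and 0.048 against the median of all genes), nor did Flt3, a cytokine receptor of progenitors, whose groups overlapped (1.03, adjusted p = 0.823). Hhex did not pass under the slide block (adjusted p = 0.0601). Without DN replicates 1 and 2 no member did, and the Lyl1 difference was 2.49 (adjusted p = 0.449).

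The B-cell list, whose median level was 4.86 and 4.01 in DN1 cells against -0.17 to 0.26 in DN cells, moved with Lyl1 and Hhex, and its part in their difference was not tested. In sorted bulk cells more cells of a type and more RNA per cell cannot be told apart.

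Notch3 was the called gene among the Notch receptors and ligands and among the Notch targets, and it was lower in DN1 cells. Notch3, a receptor that is itself induced by Notch signals in thymocytes, was at 1.07 and 1.19 in control DN1 cells, against 4.31, 5.84 and 5.71 in control DN cells. The DN1 arrays lay below all DN arrays, with a difference of -3.38 ± 0.79 (adjusted p = 0.016, and 0.0257 against the median of all genes), -2.37 within slide 3 and -3.78 within slide 5; blocking on the slide gave an adjusted p of 0.0887. Notch1, the receptor for T commitment, was at 0.55 and 0.52 in DN1 cells, against 3.04, 2.28 and 2.74 in DN cells. Its arrays did not overlap and its 3 probes had the same sign, but the difference of -1.37 ± 0.84 did not pass (adjusted p = 0.2).

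Of the 12 Notch targets 1 was called lower and 0 higher, and their median was 0.21. Ptcra, the pre-T alpha chain, was at 0.11 and 0.75 in DN1 cells, against 2.85, 4.06 and 3.99 in DN cells (-2.43 ± 1, adjusted p = 0.138). Myc was at 5.55 and 5.81 in DN1 cells, against 5.59, 6.16 and 6.72 in DN cells, with overlapping groups. Of the 9 receptors and ligands 1 was called, with a median of -0.32.

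The T-lineage lists had no calls against 0. Of 20 T-lineage transcription factors 0 passed the limma test, with 3 higher and 2 lower at an unadjusted p under 0.05 and a median of 0.48. Tcf7, the factor that opens the T programme, was at 5.95 and 6.65 in control DN1 cells, against 7.44, 7.46 and 7.71 in control DN cells (-0.45, adjusted p = 0.273). Of 20 genes of the pre-T and T-cell receptor complex 0 passed, with 4 higher and 2 lower at an unadjusted p under 0.05 and a median of 1.39. Over all 21749 genes tested, 1280 were higher and 3260 lower at that level, so such small counts set neither list apart. Cd3d, a chain of CD3, was at 5.95 and 6.55 in DN1 cells, against 6.62, 7.71 and 7.74 in DN cells, and Cd3e was at -0.95 and -0.07, against 1.4, 1.09 and 0.87. Both had adjusted p-values over 0.05 (0.356 and 0.215), although the DN1 arrays lay below the DN arrays in both. Against the median of all genes 3 of the factors and 1 of the receptor complex genes were called, all higher.

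Of 12 rearrangement genes 0 passed and 1 had an unadjusted p under 0.05. Dntt, the enzyme that adds bases at the joints of receptor genes, was at 6.95 and 7.64 in DN1 cells, against 8.92, 9.43 and 9.27 in DN cells (-1.14, adjusted p = 0.183), and Rag1 had overlapping groups. Of the 7 E proteins and Id inhibitors 0 passed, with 1 higher and 1 lower at an unadjusted p under 0.05, and against the median of all genes 1 was called higher.

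Proliferation genes did not pass. Of 24 DNA replication genes 0 were called, with a median difference of -0.41, and 10 were lower at an unadjusted p under 0.05 before the shift of all genes was taken off. Of 24 mitosis genes 0 were called and 5 were lower in the same sense, with a median of -0.45. Against the median of all genes 0 members of either list had an unadjusted p under 0.05. Mcm6, part of the replicative helicase, was at 6.51 and 7.27 in control DN1 cells, against 8.34, 8.93 and 8.9 in control DN cells (-1.06, adjusted p = 0.161). Without DN replicates 1 and 2 the medians of these lists were -1.69 and -1.27, and without DN replicate 3 they were 0 and -0.04, so their size rests on that array. Of 25 ribosomal protein genes 0 were called, with 6 lower at an unadjusted p under 0.05 (0 against the median of all genes) and a median of -0.46.

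Receptors and response genes held further calls. Of 16 chemokine receptors 5 rose (median 3.02): Ccr2, Ccr7, Cxcr5 and Cxcr6, given above, and Cxcr3, the receptor for interferon-induced chemokines, at 5.08 and 4.79 in control DN1 cells, against 0.55, -0.02 and 1.82 in control DN cells (4.93 ± 0.75, adjusted p = 0.0118). Of 25 cytokine receptors 3 rose (median 2.27): Il7r, the interleukin-18 receptor Il18r1 (5.74, adjusted p = 0.016) and Csf2rb, the shared chain of the GM-CSF receptor (4.96, adjusted p = 0.0296). Only 1 of the 3 probes for Csf2rb had that sign. Of 11 Toll-like receptor genes 2 rose (median 2.34), Tlr7 and Tlr3, a sensor of RNA that was at least 3.13-fold higher (adjusted p = 0.0343). Cxcr3, Csf2rb, Tlr7 and Tlr3 did not pass under the slide block (adjusted p of 0.0663, 0.0663, 0.0813 and 0.131), and without DN replicates 1 and 2 none of these 3 lists had a call.

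Of 20 immediate-early and heat-shock genes, which respond within minutes to stimulation or to cell handling, 3 rose, with a median of 2.83. Zfp36, which destabilises cytokine messages, was at 4.23 and 3.7 in DN1 cells, against 0.42, 0.92 and 1.35 in DN cells (3.85, adjusted p = 0.00789), and the factors Atf3 and Egr2 had differences of 4.24 and 4.51 (adjusted p of 0.00931 and 0.0317). Of 21 type I interferon response genes 1 rose, Ifit3 (5.16, adjusted p = 0.0235), with a median of 2.39. Under the slide block and without DN replicates 1 and 2, neither of these lists had a call.

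Some genes of cells that the sorts should not hold differed between the DN arrays. Hba-a1, the alpha chain of haemoglobin, was at 5.45 and -0.03 in control DN1 cells, against 9.25, 9.65 and 2.63 in control DN cells. The dim DN replicates 1 and 2 were high, and the groups overlapped. The median level of the 8 erythroid genes tested was -4.06 and -5.07 in DN1 cells, against -0.94, -0.33 and -3.37 in DN cells, and 0 of them passed, with 4 lower at an unadjusted p under 0.05 (2 against the median of all genes) and a median difference of -1.75. The part of red cell RNA in the other differences was not tested.

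Dcn, a matrix protein of fibroblasts, was at 1.4 and 1.01 in DN1 cells, against 3.62, 2.95 and -2.17 in DN cells. Here too DN replicates 1 and 2 were high and replicate 3 was low. Of 13 fibroblast and endothelial genes 0 passed and 1 was higher at an unadjusted p under 0.05 (median 0.52), and of 14 thymic epithelial genes 0 passed, with 2 higher and 1 lower at an unadjusted p under 0.05 (median 0.35), although 1 was called higher against the median of all genes. Psmb11, the thymus-specific proteasome subunit of the epithelium, was at 0.66 and 1.11 in DN1 cells, against -4.79, -0.69 and -7.67 in DN cells (adjusted p = 0.182). Of 10 mast cell and basophil genes 0 passed and 1 was lower at an unadjusted p under 0.05, with a median of -0.04.

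The largest fitted rises among called genes with a symbol included Clec10a, H2-DMb2, H2-Aa and Pax5. Cd55, which shields cells from complement, was at 2.28 and 2.23 in control DN1 cells, against -3.68, -4.53 and -5.2 in control DN cells (7.5 ± 0.87, adjusted p = 0.0038), and kept its call without DN replicates 1 and 2 (7.81, adjusted p = 0.0453). Zbtb32, a zinc finger repressor of lymphocytes, was not well above background on any DN array and was at least 53.6-fold higher in DN1 cells (adjusted p = 0.00532). Btla, an inhibitory receptor of lymphocytes, was at 4.91 and 4.44 in DN1 cells, against -4.76, -0.72 and 0.26 in DN cells (7.19 ± 1.05, adjusted p = 0.00701), so its difference was 10.53 within slide 3 and 6.03 within slide 5. The other 5 were Rab30, Slco2b1, Gpat3, Rnf43 and Acot11, with adjusted p-values from 0.00455 to 0.032. Slco2b1, Rnf43 and Acot11 did not pass under the slide block (adjusted p of 0.0623, 0.0633 and 0.118). Of the probes for Cd55, 2 of 3 had the sign given, and of those for Slco2b1, Rnf43 and Acot11, 1 of 2 did.

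The 12 largest falls mostly rest on bounds. Akap6, Avil, Sv2a, Spz1, Lpar1, Lgals12 and Plet1os were not well above background on either DN1 array, and were at least 6.07-fold (Lgals12) to at least 61.9-fold (Akap6) lower in DN1 cells, with adjusted p-values from 0.0186 to 0.0492. Gm6260 and Rhox13 were well above background on 1 DN1 array (differences of -5.37 and -3.82). Cpsf4l, Fn3k and Acot5 were well above background on both DN1 arrays, with differences of -5.98, -5.49 and -4.45 (adjusted p of 0.0202, 0.023 and 0.0225). Of the 12, 6 did not pass under the slide block, namely Akap6, Cpsf4l, Fn3k, Lpar1, Lgals12 and Rhox13 (adjusted p from 0.0795 to 0.12), and with arrays centred Sv2a and Acot5 did not (0.063 and 0.0506). Of the probes for Fn3k 1 of 2, and of those for Sv2a 2 of 3, had the sign given. Acot5, a peroxisomal acyl-CoA thioesterase, was at -5.37 and -2.61 in DN1 cells, against 0.18, 1.4 and 2.14 in DN cells. Firre, a long noncoding RNA of the nucleus, was measured on every array: it was at 0.22 and 0.55 in DN1 cells, against 3.56, 3.72 and 3.61 in DN cells (-2.46 ± 0.51, adjusted p = 0.00572). Its 3 probes had the same sign, and the groups were tight and apart.

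The same comparison in anti-DLL4 animals, on arrays that the control comparison does not use, gave 1 called gene of 21234 (0.00471%), Mpped2, which was higher in anti-DLL4 DN1 cells, with 860 genes at an unadjusted p under 0.05. The 241 genes higher in control DN1 cells had a median difference of 0.01 in anti-DLL4 arrays against 4.71 in control arrays, where they were chosen. The 34 of the 54 lower genes that were measured in anti-DLL4 arrays had a median of -0.385 there and of -3.29 in control arrays. H2-DMb2 was at -1.44, -0.74 and -0.19 in anti-DLL4 DN1 cells, against -0.68, -0.5 and -0.68 in anti-DLL4 DN cells, and the groups overlapped. Fcrla was at 5.3, 4.87 and 5.8 in anti-DLL4 DN1 cells, against 5.68, 4.95 and 5.99 in anti-DLL4 DN cells. In both genes the anti-DLL4 DN arrays lay within or above the range of the DN1 arrays of both arms. Notch3 was at 0.27, 1.37 and -1.16 in anti-DLL4 DN1 cells, against 1.99, 3.83 and 1.27 in anti-DLL4 DN cells, a difference of -2.15 (adjusted p = 0.979).

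**Figure D4:**
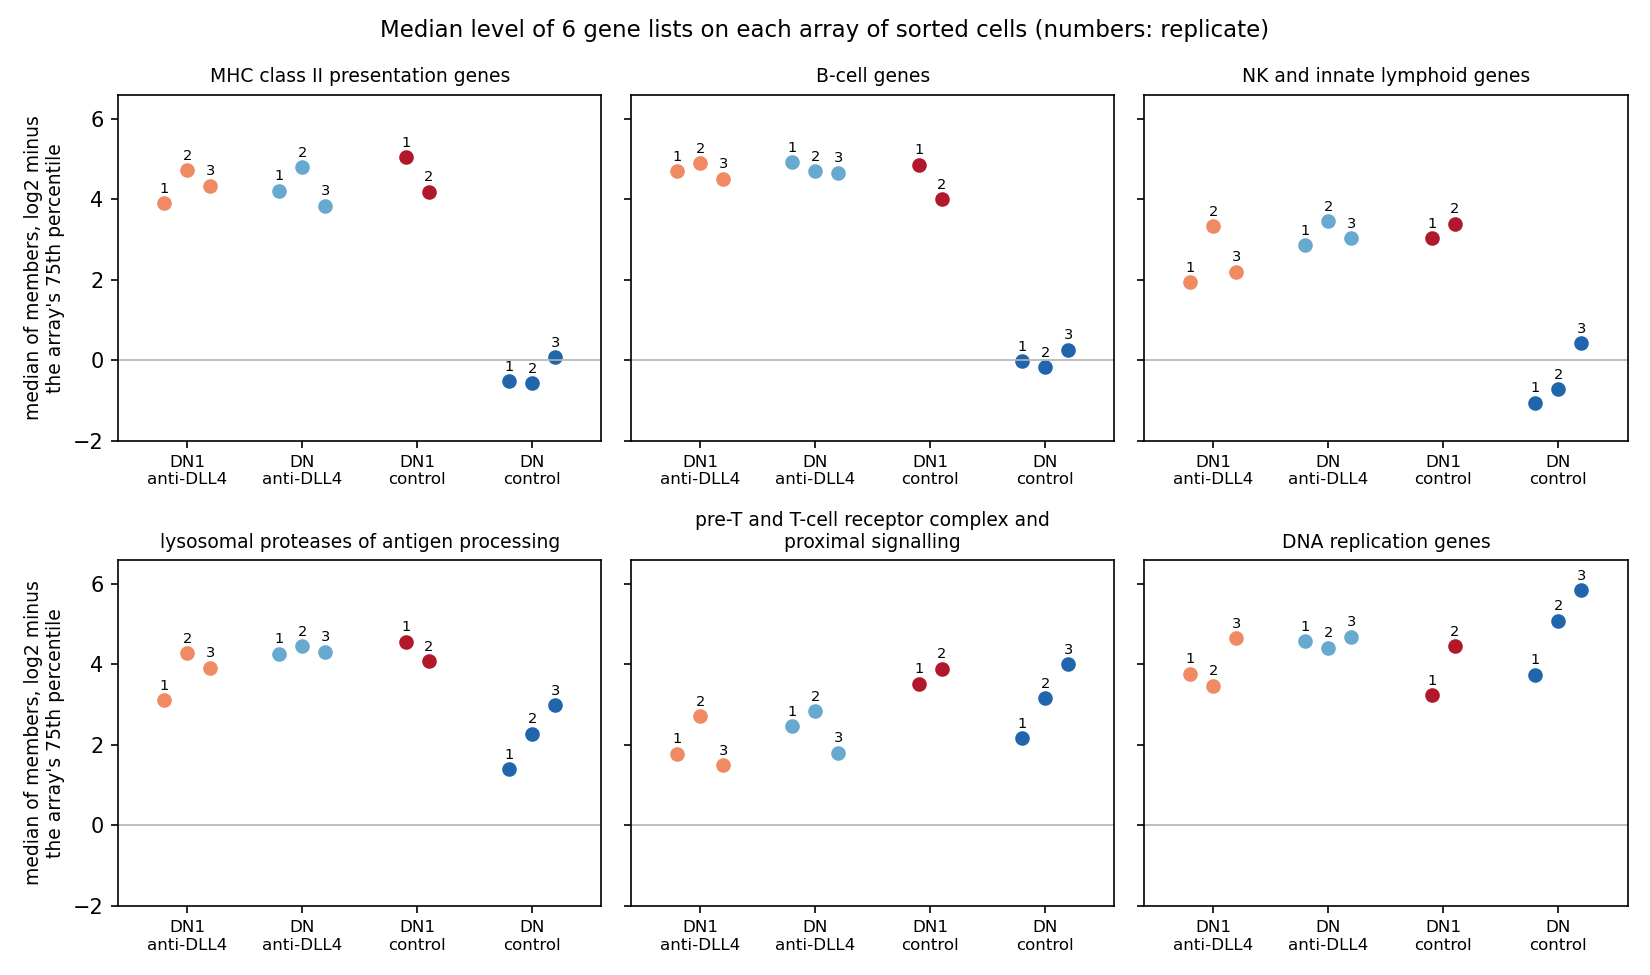
Median level of the tested members of 6 gene lists (vertical axis, log2 intensity minus the 75th percentile of the array) on each array of the sorted groups, DN1 left of DN and anti-DLL4 left of control, with the replicate number above each point. For MHC class II, B-cell and NK genes the control DN arrays lie below all other arrays, at -0.58 to 0.07, -0.17 to 0.26 and -1.06 to 0.42. They are also the dimmest of these arrays by their 75th percentile.

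Whether the DN1 minus DN difference itself differed between the antibody arms was tested as an interaction, anti-DLL4 minus control. Values are printed relative to its median of 0.64 over 22689 genes, and the p-values test the unshifted value, the printed one plus 0.64, against 0. It passed for 16 genes with a higher difference under anti-DLL4 (0.0705%) and for 32 with a lower one (0.141%), and 2776 had an unadjusted p under 0.05. Against the median of all genes it passed for 15 and 130. The interaction was -6.39 ± 0.75 for H2-Aa (adjusted p = 0.0138). H2-DMb2, not well above background on any control DN array, was at least 61.5-fold lower in this ratio of ratios (adjusted p = 0.0138). The interaction also passed for H2-Ab1, H2-Eb1, Ctss, Ctsh, Clec10a, Cd83, Fcrla, Fcmr, Cxcr5, Cxcr3, Gzmb, Klra1 and Cd55. Of the MHC class II list 4 of 11 passed, of the B-cell list 3 of 23, and of the NK list, the conventional dendritic cell list, the chemokine receptors and the lysosomal proteases 2 each. It did not pass for Cd44 (-2.87, adjusted p = 0.254) or Notch3 (1.31, adjusted p = 0.441). Under the slide block, and with the 11 arrays alone, 0 genes passed, while 3965 and 2342 had an unadjusted p under 0.05. The control DN arrays were the dimmest of these 11 arrays, and the part of brightness in the interaction was not tested.

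Among genes with a higher interaction, Firre was at 2.02, 1.99 and 1.33 in anti-DLL4 DN1 cells, against 1.99, 0.87 and 1.45 in anti-DLL4 DN cells (2.94 ± 0.69, adjusted p = 0.0484, and 0.0708 against the median of all genes). Mpped2 was at 0.29, -0.17 and -1.83 in anti-DLL4 DN1 cells and not well above background on any anti-DLL4 DN array, whereas it was at -1.39 and -6.7 in control DN1 cells against 0.01, -0.29 and -0.82 in control DN cells. Its interaction was at least 507-fold higher (adjusted p = 0.0146), and its control DN1 arrays were far apart from each other. Slc38a11, Avil and Mbd5 also passed, with levels that were not well above background on any control DN1 array or any anti-DLL4 DN array. The interaction was at least 395-fold higher for Slc38a11 and at least 54.3-fold higher for Avil, while Mbd5, also dim on every control DN array, has no bound.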

How the data were processed

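The deposited files hold a Cy3 intensity per spot, from which background was subtracted within an array and which was not scaled between arrays, per the file headers. The scanner software was Agilent Feature Extraction, version 9.5.3.1 in the headers and 9.5 in the submitters' processing notes. The deposited files also flag spots as well above background, saturated or outlying and give mean and local background intensity. Probe positions in them are of the mm8 build, per the file headers, and are not used here. A table deposited by the authors for the series holds a ratio per array for 43225 probes. Its log2 values differed from scanner values minus the array's percentile and the probe's median over 18 arrays by medians of -0.014 to 0.003, with 69.7% to 70.7% within 0.05. It therefore runs with intensity, is linear and is centred per probe, and the divisor of the remaining values is unknown. The column medians were 0.639, 0.68 and 1.01 (anti-DLL4 thymocytes), 1.11, 0.999, 0.864 and 0.866 (control thymocytes), 0.989, 0.652 and 0.729 (anti-DLL4 DN1), 0.874 and 0.799 (control DN1), 0.814, 0.741 and 0.889 (anti-DLL4 DN) and 1.42, 1.21 and 0.953 (control DN).

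Processed signals were put on a log2 scale, less the 75th percentile of all non-control spots of that array. Outlier spots were dropped, saturated ones (at most 1 per array) kept, and spots of a probe averaged. The 43426 probes were named through RefSeq (GRCm38.p6) by accession (26215), current symbol (7270) or older symbol (3073), and 6868 kept the file's name, giving 25589 genes, each read by its brightest probe. One model of 6 group means over 18 arrays (12 residual degrees of freedom, 23120 genes) was fitted by lmFit and eBayes of limma (3.58.1, under R 4.3.3, with data handled in data.table, version 1.17.8). Tests were two-sided, of the unshifted difference against 0, with Benjamini-Hochberg adjustment over the genes tested in a comparison. They were also run on simulated data, in which each gene had its own spread, shared by all groups. That run could not check the tests under unequal spread of the groups or under brightness that moves with them. A bound of at least N-fold is the brighter group's mean over a floor for the dimmer group. The floor is the mean, over its arrays, of the probe's own value or, where that is lower, of the lowest value among probes well above background. The bound was taken on the unshifted scale and relative to the median of all genes, and the lower value is given. It makes no allowance for the spread between arrays.

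The members, the 33 lists (484 symbols, 466 of them on the array) and the rule for named genes were chosen with earlier results of these data known. Named genes are the sort antigens and the markers Cd44, H2-DMb2, Clec10a and Notch3, up to 6 called members of each list by adjusted p (and the 2 highest-level members where fewer than 2 were called), the 12 largest called rises and falls with a symbol and no overlap, and up to 6 genes in each direction of the interaction. Defining markers of cell types were also named. Some genes that the rule names are not reported here. Same-numbered replicates of the control groups share a slide, and the number of arrays limits the precision.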

Additional observations from a re-analysis of the deposited data

Results flagged for a closer look

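The DN1 minus DN difference of 20 named genes differed between the antibody arms by the limma interaction (anti-DLL4 minus control), relative to the median of all genes. It was lower under anti-DLL4 for the MHC class II genes H2-DMb2 (-7.12), H2-Aa (-6.39), H2-Eb1 (-5.33) and H2-Ab1 (-5.2), for the lysosomal proteases Ctss (-5.18) and Ctsh (-4.71), and for the dendritic cell genes Clec10a (-7.92) and Cd83 (-5.23). It was also lower for the B-cell genes Fcmr (-5.94), Cxcr5 (-5.91) and Fcrla (-5.63), for the NK genes Klra1 (-5.54) and Gzmb (-5.27), and for Cd55 (-7.51) and Cxcr3 (-5.97). It was higher for Slc38a11 (10.6), Mpped2 (10.36), Avil (9.3), Mbd5 (5.67) and Firre (2.94). The adjusted p-values ran from 0.0138 to 0.0484, and 0 of all genes passed with the slide as a block. These are fitted values, and for H2-DMb2, Klra1, Mpped2, Slc38a11, Avil and Mbd5 they rest on groups whose arrays all read the probe near background. As bounds the interaction was at least 61.5-fold lower for H2-DMb2 and at least 20.9-fold lower for Klra1, and at least 507-fold higher for Mpped2, 395-fold for Slc38a11 and 54.3-fold for Avil, while Mbd5 has no bound. Tested against the median of all genes, Firre did not pass (adjusted p = 0.0708) and the other 19 did. Groups of 2 or 3 arrays were not searched for outlying arrays, and the part of array brightness in these values was not tested.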

How the results depend on the processing

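The counts in control arrays (241 higher, 54 lower in DN1) were 556 and 108 with quantile normalization, 103 and 2 (Firre and Notch3) with normexp background, 2493 and 8919 with array weights, whose fit did not reach its tolerance, 106 and 22 with the slide as a block, and 0 and 0 with the 5 arrays alone. The lower count was 151 with no filter on dim genes and 26 with genes well above background on all 5 arrays. Leaving out 1 array gave 1 to 518 higher and 1 to 1112 lower genes, and leaving out DN replicates 1 and 2, an alternative chosen after seeing the data, gave 13 and 0. Testing against the median of all genes in place of 0, also added after seeing the data, gave 764 and 29. The other alternatives stayed within 1.5 times. Deviations from the group means correlated at r = 0.42 and -0.25 between same-numbered control replicates (crossed, 0.25 and -0.42). With 2 DN1 arrays their deviations are equal with opposite signs, so these values cannot decide whether the numbers are pairs. No label ties a sample to an animal, and the numbers were not taken as pairs. With a replicate block the counts were 242 and 111, with 186 and 32 of the reported genes among them. Of the 76 called genes named, none changed direction under any setting. The count kept was 76 of 76 without DN replicate 3, with no filter and against the median of all genes, 40 with the slide as a block, 37 with normexp, 21 of 69 without DN1 replicate 2, 4 of 69 without DN replicates 1 and 2, and 1 of 69 without DN1 replicate 1.

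In anti-DLL4 arrays (1 higher, 0 lower) there were 3 with quantile normalization, 2 with arrays centred, 4 with the compared arrays alone and 6 with array weights. There were 0 when scaled to probes well above background on all arrays, with normexp, with genes above background on all arrays, with the mean of all probes, and with the slide or the replicate block. Leaving out 1 array gave 0 to 1 higher and 0 to 2 lower. The interaction (16 higher, 32 lower) gave 80 lower with quantile normalization, 58 lower with arrays centred, 20 lower with no filter, 2 higher with genes above background on all arrays, 2 and 7 when scaled to probes above background everywhere, 0 and 9 with normexp, 2534 and 836 with array weights, 0 and 0 with the 11 arrays alone or the slide block, 5 and 5 with the replicate block, 0 and 4 without DN replicates 1 and 2, and 130 lower against the median of all genes. Leaving out 1 array gave 0 to 519 higher and 0 to 185 lower. The cause of these changes was not tested, except that the 5 arrays alone leave 3 residual degrees of freedom in place of 12. The DN1 arrays are brighter than the DN arrays, and most large falls are bounds. The part of brightness in these falls was not tested.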
